A study of Zea mays with 54 samples.

Results

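The glutamine synthetase family of maize was followed in the outer cell layer and the corpus of the shoot apical meristem (SAM) on 18 two-colour cDNA slides. Members were the spots whose single annotated gene had the symbol or RefSeq synonym gln followed by digits, in any case. The rule found 18 spots of 6 genes among 49280 probes on 3 array designs, of which 3845 probes carried a single annotated gene. Of the 18 spots, 15 had values. By gene these were 4 of 4 spots of GLN6, 3 of 4 of gln5, 3 of 4 of gln4, 2 of 2 of gln3, 2 of 3 of gln1 and 1 of 1 of gln2. The family was chosen by the difference of gln5 between the layers on slides 7 to 12. The gln5 values on those slides are therefore a description and carry no test. All gln5 spots lay on slides 7 to 12, so gln5 had no measurement in a comparison that its choice had not used.

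Glutamine synthetase joins ammonium to glutamate to make glutamine, the entry point of inorganic nitrogen into amino acids, and it also recaptures ammonium released inside the plant. Plants hold a plastid enzyme, GS2, and a small family of cytosolic enzymes, GS1, whose genes differ in the organs and cell types that express them. In the RefSeq names for maize, gln1 is GS2, GLN6 is GS1-1, gln2 is GS1-2, gln4 is GS1-3, gln5 is GS1-4 and gln3 is GS1-5. RefSeq also gives GLN2 as a synonym of gln1, so spots were assigned by gene ID, and gln2 here means GS1-2. In maize leaves GS1-3 is known from mesophyll and GS1-4 from bundle sheath cells, and GS1-2 is known from the pedicel of the developing kernel. The coding sequences of the cytosolic genes are closely alike, and a spotted cDNA may bind transcripts of more than 1 of them. Each value below is therefore that of a spot, and its assignment to 1 cytosolic gene is uncertain.

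Every slide set the L1, the surface layer that gives rise to the epidermis, against the L2, here the corpus beneath it, in vegetative meristems of the inbred line B73 from 14-day-old seedlings. Both layers were collected by laser microdissection, RNA of 5 to 10 SAMs was pooled per biological replicate, and about 1 ng was amplified. Odd slides had L1 in Cy3 and L2 in Cy5, and even slides the reverse. A slide has 3 readings, lettered L, M and H without further explanation in the labels. Slides 1 to 6, 7 to 12 and 13 to 18 are the 3 designs. L1 extract numbers 1 to 5 recur on all 3, so the designs were taken to share extracts. The L2 extract number set against L1 extracts 1 and 5 on slides 1 to 6 differs from that on the other designs. Slides 1 and 2, and slides 5 and 6, share an L2 extract number.

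Differences are L1 minus L2 in log units, averaged over the 3 readings of a slide. The base of the logarithm is unknown here, so folds are given for base 2 and for the natural logarithm. The values were taken as Cy5 over Cy3, which is likely but which no label states. Slides of opposite orientation had a median correlation of -0.164 on slides 7 to 12, -0.162 on slides 13 to 18 and 0.0265 on slides 1 to 6. The slides were turned by their dye labels, and the markers below were used to judge which layer was positive. By limma the outer cell layer gene ocl1 was higher in L1 on all 3 designs, at 0.90 and 1.00, 0.93, and 1.00. Of all spots of L1 markers (ocl genes, gl8 and cr4), 3 of 6, 3 of 5 and 2 of 4 were called higher in L1 on the 3 designs in turn and none lower, over a range of -0.15 to 2.65. The meristem gene kn1 was lower in L1 at -1.26, -0.72 and -0.37 on slides 1 to 6, and on 1 of 2 and 1 of 3 spots on the other designs, at -1.72 and -1.56. Because the sign was judged by these markers, they are no independent check of it. Leaf and lateral organ genes (YABBY factors, lg2, rs2 and rld1) were called higher in L1 on 3 of 8, 2 of 6 and 2 of 11 spots of the 3 designs in turn, and none was called lower. The photosynthesis gene rbcS, a leaf marker, lay between -0.05 and 0.27 and was not called on any of its 4 spots. The part of leaf cells in the results below was not tested. In bulk samples such as these, fewer cells of a type and less RNA per cell cannot be told apart.

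The cytosolic gene gln5 stood highest of the family on 1 of its 3 spots with values. Spot 87 was at 0.37, 0.95, 0.76, 1.36, 0.85 and 0.67 on slides 7 to 12 in order. All 6 slides lay on the L1 side, with a mean of 0.83 ± 0.33 (SD, n = 6), a fold of 1.78 if the base is 2 and of 2.29 if it is natural. Its size was exceeded by 0.845% of the probes of that design. The means of its L, M and H readings were 0.82, 0.83 and 0.84, and all 18 single readings were above 0, from 0.30 to 1.45. It averaged 1.00 with the L1 in Cy5 and 0.66 with the L1 in Cy3.

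The other gln5 spots did not show this. Spot 4189 was at 0.05, -0.00, 0.45, -0.08, -0.16 and -0.47 on slides 7 to 12, with a mean of -0.03 ± 0.30 (SD, n = 6). Spot 11761 was at 0.03, 0.23, -0.02, -0.20, 0.70 and 0.33, with a mean of 0.18 ± 0.32 (SD, n = 6). Both crossed 0 among the slides, whereas spot 87 lay above each of them on 6 of 6 slides, by a mean of 0.86 over spot 4189 and 0.65 over spot 11761. The mean over the 3 gln5 spots was 0.32, from 0.15 to 0.46, above 0 on 6 of 6 slides. The remaining gln5 spot, 9486, had no values.

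The gln5 spots also differed in how well the readings of a slide agreed. The 3 readings of a slide spanned 0.139 on average at spot 87, 0.744 at spot 4189 and 1.11 at spot 11761, against a median of 0.186 over all probes of the design. Readings of spot 11761 ranged from -1.18 to 2.76, both on slide 11, and 9 of its 18 readings were above 0. Of spot 4189, 8 of 18 readings were above 0. Spot 87 was thus tighter than 64.8% of the probes, while 8.96% and 4.23% of the probes were wider than spots 4189 and 11761.

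**Figure D1:**
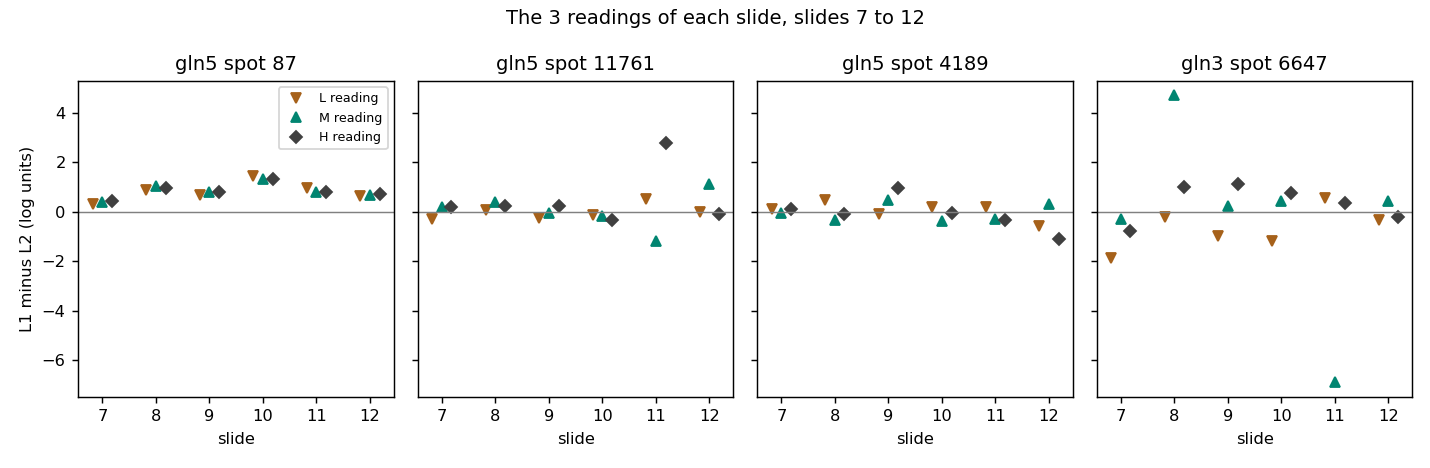
L1 minus L2 in log units (vertical axis) for each of the 3 readings (L, M and H, by symbol) of slides 7 to 12 (horizontal axis), for the 3 gln5 spots with values and the gln3 spot of that design. The readings of gln5 spot 87 lie together between 0.30 and 1.45, whereas those of gln3 spot 6647 span -6.90 to 4.70.

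As a description of what else looked like gln5 spot 87, the 5 nearest of 418 genes over the 6 slides were yab14, ocl1, yab9, ocl3 and prp2. The measure was the root mean square distance between slide values, which was 0.283, 0.392, 0.426, 0.432 and 0.453 log units. The closest spot of each gene was taken. These spots had means of 0.66 for yab14 and 0.46 for yab9, YABBY factors of lateral organs. The means were 0.93 for ocl1 and 0.80 for ocl3, homeodomain factors of the outer cell layer, and 1.02 for prp2. A second ocl3 spot of the design was at -0.15 (limma adjusted p = 0.666). On this design limma called probes at an adjusted p under 0.05. The last probe called had a size of 0.42 ± 0.074 and the first not called, that of yab14, 0.66 ± 0.12 (SE, n = 6), so a smaller difference could pass where the slides agreed more closely.

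GLN6, the cytosolic GS1-1, was the family member called lower in L1, on 1 of its 4 spots and over extracts. The array annotation gives spots 1594, 1474 and 1278, on the 3 designs in turn, as the same cDNA clone. On slides 1 to 6 spot 1594 was at -0.08, -0.49, -0.17, -0.49, -0.47 and -0.64. All 6 values were below 0, and limma put the difference at -0.39 ± 0.079 (SE, n = 6, 95% interval -0.57 to -0.22, adjusted p = 0.0259). Spot 1594 was thus 1.31-fold lower in L1 if the base is 2, and 1.48-fold lower if it is natural. It was the single call among the 4 family spots tested on those slides, where 2.84% of all probes were called in either direction and 1.34% as lower in L1. The call did not survive the loss of any 1 slide (adjusted p from 0.0532 to 0.106), nor the M reading alone (-0.29, adjusted p = 0.120) or the H reading alone (-0.27, adjusted p = 0.238). Without slides 1 and 5, which removes the shared L2 extracts, it was -0.35 (adjusted p = 0.442). With the L reading alone it stayed past the threshold at -0.61 (adjusted p = 0.0270).

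On the other designs the same GLN6 clone also had a mean below 0 and was not called. Spot 1474 was at -0.83, -0.47, 0.39, -0.67, -0.38 and -0.46 on slides 7 to 12, with a mean of -0.40 ± 0.15 (SE, n = 6, limma adjusted p = 0.304). Slide 9 was the exception among otherwise negative values. On slides 13 to 18 spot 1278 was at -0.32, -0.31, -0.06, -0.31, -0.17 and -0.43, all below 0, with a mean of -0.27 ± 0.054 (SE, n = 6, limma adjusted p = 0.0755). Over the 3 designs the clone was below 0 on 17 of 18 slides, with a median of -0.40. Its readings within a slide spanned 0.458, 0.406 and 0.455 on average on the 3 designs in turn. The medians over all probes were 0.144, 0.186 and 0.176. With the L1 in Cy5 the clone averaged -0.54, -0.53 and -0.35, and with the L1 in Cy3 -0.24, -0.27 and -0.18. The dye term was not called at these spots (limma adjusted p from 0.259 to 0.800).

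Since L1 extract numbers recur on the designs, slides were averaged by L1 extract number. Extracts 6, 7 and 8 rest on 1 slide each and weigh as much as the others in the fit below. Extracts 1 and 2 were set against the same L2 extract number on slides 1 and 2, as were extracts 5 and 6 on slides 5 and 6. The values of the 8 extracts are therefore not fully independent. The clone averaged -0.41, -0.43, 0.06, -0.49, -0.37, -0.64, -0.38 and -0.43 in extracts 1 to 8. Thus 7 of 8 extracts were below 0, and extract 3, on slides 3, 9 and 15, was the exception. Without extract 3, left out for its own value, the extract-level difference described next was -0.37, a description with no test. In a limma fit over the 216 genes with values in all 8 extracts, which for GLN6 takes all 4 spots, it was at -0.31 ± 0.062 (SE, n = 8 extracts, 95% interval -0.44 to -0.17, adjusted p = 0.0135), and 3.70% of the genes were called as lower in L1. GLN6 was the only family member present in all 8 extracts. The call was kept without slides 7 to 12 (-0.23, adjusted p = 0.0327, n = 7 extracts) and lost without extract 1 (-0.27, adjusted p = 0.0535). The L reading alone gave -0.18 (adjusted p = 0.231) and the H reading alone -0.37 (adjusted p = 0.0586). Restricted to the 21 clones spotted on all designs, a setting chosen after seeing the data, the value was -0.38 ± 0.076 (SE, n = 8 extracts). This setting leaves out the other GLN6 spot, and its value is a description with no test. Of the 21 clones, 14.3% were called as lower in L1.

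**Figure D2:**
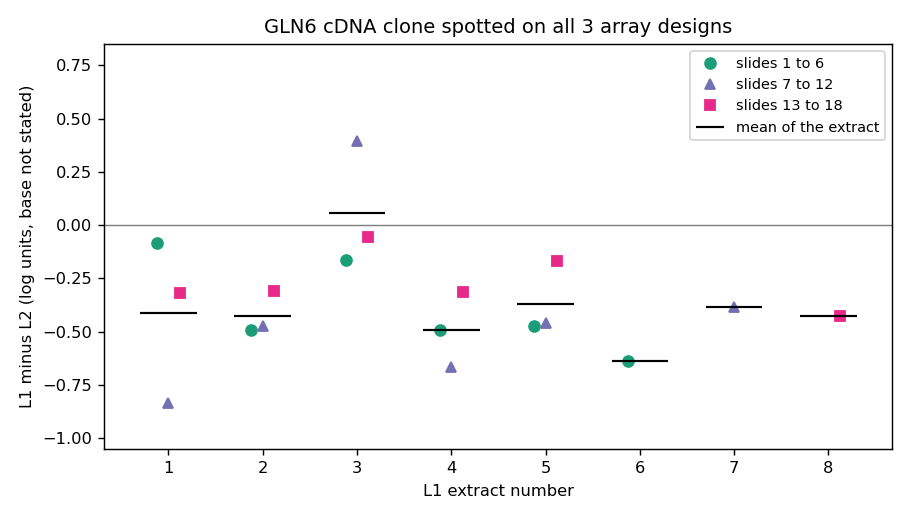
L1 minus L2 in log units (vertical axis) of the GLN6 clone by L1 extract number (horizontal axis), 1 point per slide with the design by symbol, and the mean of each extract as a line. Of the 18 points, 17 lie below 0, and extract 3 is the only one whose mean is above 0.

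A second GLN6 spot on slides 1 to 6, spot 17073, was at -0.02, -0.23, 0.34, 0.43, 0.30 and -0.33, with a mean of 0.08 ± 0.11 (SE, n = 6, limma adjusted p = 0.788). The clone was lower than this spot on 6 of 6 slides, by a mean difference of -0.47 ± 0.33 (SD). This and the differences between the GLN6 clone and other genes given below are descriptions with no test, because the clone was singled out for its low values. Both spots carry the GLN6 name, so the call on slides 1 to 6 belongs to 1 of its 2 spots.

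gln4, known in maize as the GS1 of leaf mesophyll, showed no call on any of its 3 spots with values. On slides 1 to 6 spot 14501 was at -0.16, -0.52, 0.05, -0.13, -0.20 and -0.38. It was below 0 on 5 of 6 slides, with a mean of -0.22 ± 0.080 (SE, n = 6, limma adjusted p = 0.228). Spot 558 of the same slides was at -0.07, -0.29, 0.20, 0.17, 0.32 and -0.27, evenly on both sides of 0, with a mean of 0.01 (limma adjusted p = 0.974). Spot 1367 of slides 7 to 12 ranged from -0.15 to 0.27 around a mean of 0.04, with a 95% interval of -0.14 to 0.21 (limma adjusted p = 0.860). Over the 7 extracts of slides 1 to 12, the GLN6 clone was at -0.41 and gln4 at -0.05. The GLN6 clone was the lower in 6 of 7 extracts, with a mean difference of -0.37 ± 0.20 (SD). Leaving out single extracts gave -0.43 to -0.33.

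gln1, the plastid enzyme GS2 that in leaves recaptures photorespiratory ammonium, was near 0 on slides 7 to 12. Spot 9485 was at 0.11, -0.22, 0.19, 0.01, 0.05 and 0.09, with a mean of 0.04 and a 95% interval of -0.13 to 0.20 (n = 6, limma adjusted p = 0.856). On slides 13 to 18 spot 13760 spread much more, at -0.49, 0.62, 0.84, -0.23, 0.83 and -0.50, with a mean of 0.18 and an interval of -0.32 to 0.68 (n = 6, limma adjusted p = 0.777). The readings of that spot spanned 1.12 on average within a slide, against 0.179 for spot 9485. The GLN6 clone lay below gln1 in 6 of 7 extracts of slides 7 to 18, at -0.34 for GLN6 and 0.06 for gln1. The mean difference was -0.40 ± 0.26 (SD), and -0.48 to -0.34 without single extracts.

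gln3 and gln2 gave the least settled values. On slides 7 to 12 gln3 spot 6647 was at -0.97, 1.82, 0.11, -0.00, -1.9998 and -0.04, with a mean of -0.18 and a 95% interval of -0.96 to 0.60 (n = 6, limma adjusted p = 0.849). Its readings within a slide spanned 3.12 on average, and 0.0334% of the probes of the design were wider. The same clone on slides 13 to 18, spot 6495, was narrower, from -0.16 to 0.30, with a mean of 0.07 and an interval of -0.10 to 0.25 (n = 6, limma adjusted p = 0.737). The GLN6 clone minus gln3 was -0.18 ± 0.89 (SD, 7 extracts).

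gln2 spot 12540 was at 0.46, 0.63, 1.63, -1.24, 1.75 and -0.06 on slides 13 to 18. The values fell on both sides of 0, 4 above and 2 below, with a mean of 0.53 and a 95% interval of -0.08 to 1.14 (n = 6, limma adjusted p = 0.448). The mean was 1.28 with the L1 in Cy3 and -0.22 with the L1 in Cy5, although the dye term did not pass the test (limma adjusted p = 0.720). Its readings within a slide spanned 1.27 on average, and 1.58% of the probes were wider. At this spread the spot did not separate 0 from differences above 1 log unit.

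**Figure D3:**
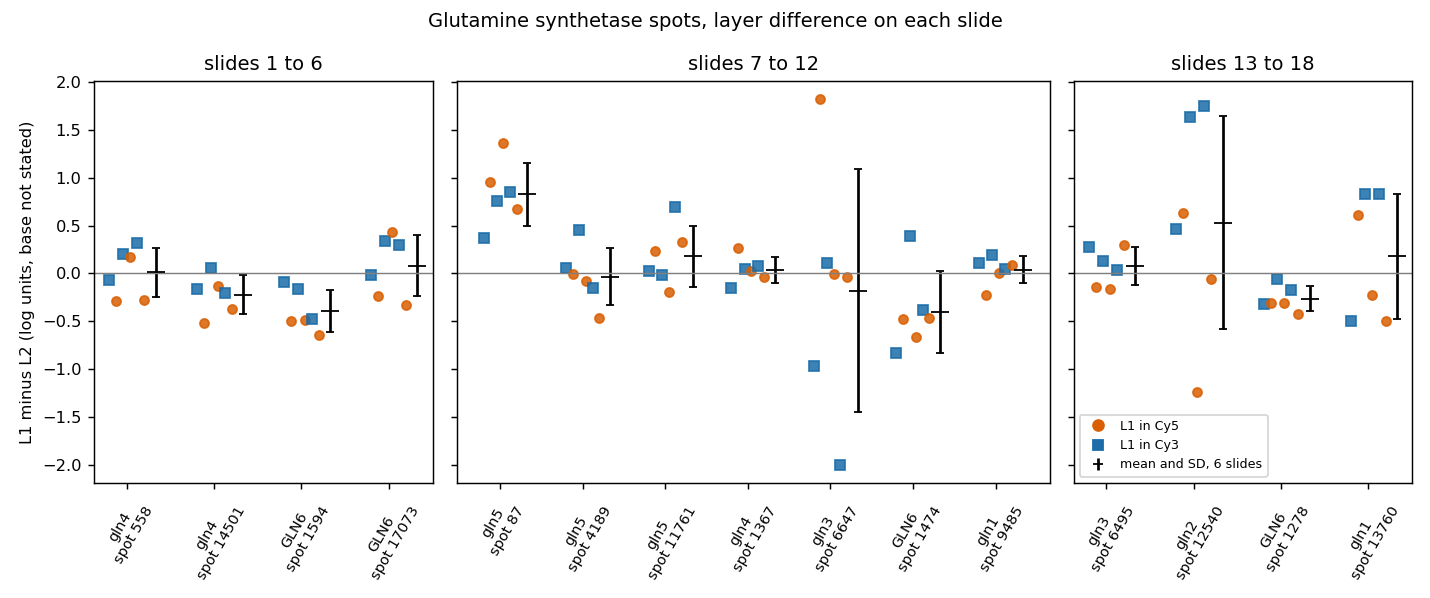
L1 minus L2 in log units (vertical axis) on each slide for the 15 glutamine synthetase spots with values (horizontal axis, by design), with slides of L1 in Cy5 as circles and of L1 in Cy3 as squares, and the mean and SD over 6 slides in black. gln5 spot 87 lies wholly above 0, GLN6 spots 1594 and 1278 lie wholly below 0, and gln3 spot 6647 and gln2 spot 12540 span the widest ranges.

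Design by design, the family's medians lay on both sides of 0. The median over its spots was -0.10 on slides 1 to 6 (4 spots), 0.04 on slides 7 to 12 (7 spots) and 0.13 on slides 13 to 18 (4 spots). The 7 spots include the 3 of gln5 by which the family was chosen, and without them the median on slides 7 to 12 was -0.07 (4 spots). Over all probes the medians were -0.00, -0.02 and 0.00. With gln5 left untested, limma called 1 of 4 family spots on slides 1 to 6 and 0 of 4 on each of the other designs. At an unadjusted p under 0.05 the counts were 2, 1 and 1, where 14.8%, 13.8% and 12.9% of all probes of the designs passed that level. Of all probes, 1.43% of slides 7 to 12 and 1.57% of slides 13 to 18 were called. On the design that holds both genes, gln5 spot 87 was above GLN6 spot 1474 on 6 of 6 slides, by 0.37 to 2.03 with a mean of 1.23.

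**Figure D4:**
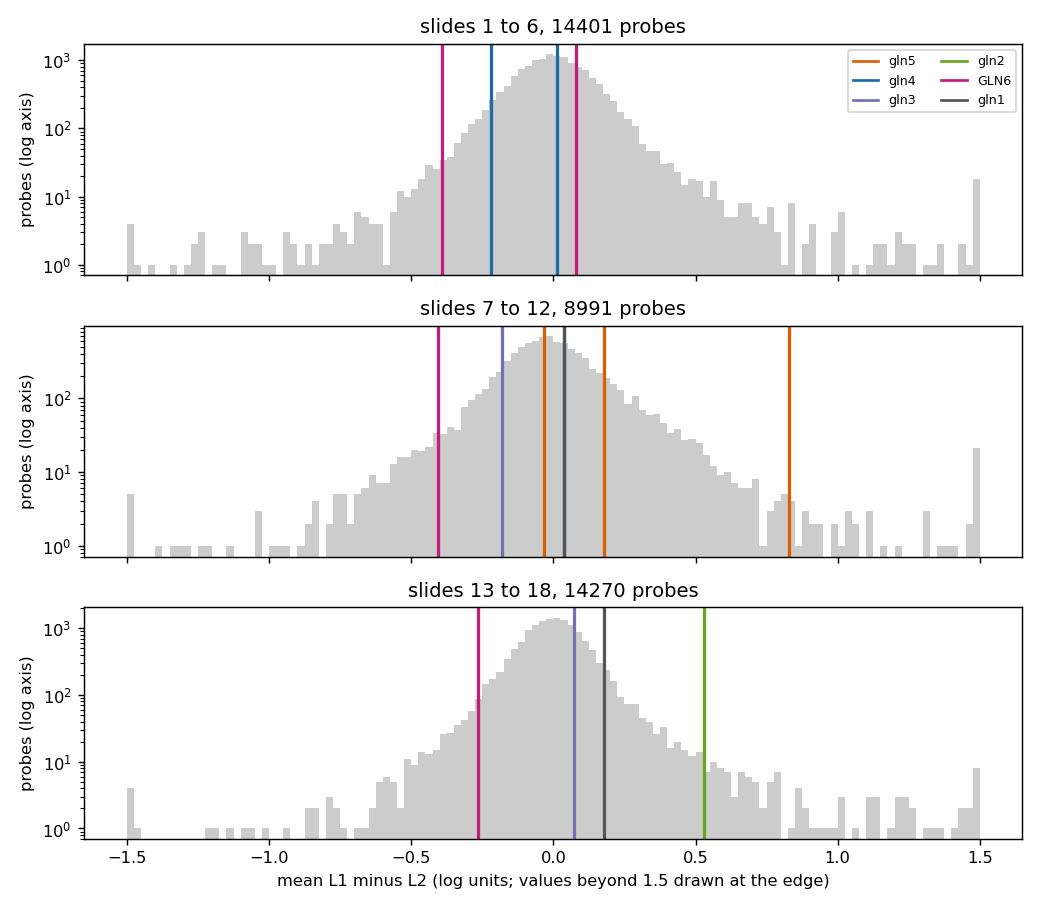
Number of probes (vertical axis, log scale) by mean L1 minus L2 in log units (horizontal axis) for each design, with the family spots as coloured lines. gln5 spot 87 stands at 0.83 in the right tail and the GLN6 clone at -0.39, -0.40 and -0.27 in the left, while the other spots lie closer to the bulk except gln2 at 0.53, and the lines of gln4 and gln1 fall together at 0.04 on slides 7 to 12.

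Few spots of other nitrogen assimilation genes were found. They were sought by symbol alone, among the 3845 probes with a single annotated gene, so others on the arrays may have been missed. A list of nitrate, ammonium, asparagine and carbon skeleton genes matched 10 spots of 5 genes, all on slides 7 to 18, and limma called 1 of 10, which was lower in L1. Of all probes, 1.43% and 1.57% were called in either direction on the 2 designs. The called gene, MNB1a, encodes a Dof transcription factor, a class that in maize acts on genes supplying carbon skeletons. It was at -0.54 ± 0.091 on slides 7 to 12 (SE, n = 6, limma adjusted p = 0.0462), below 0 on 6 of 6 slides. The list that names it was drawn up with earlier results of these data known, so this call is no independent finding. The MNB1a call was kept without slide 7 (adjusted p = 0.0349) and lost without any other single slide (adjusted p from 0.116 to 0.163) with each reading alone (0.0561 to 0.0899) and without the dye term (0.145). Under these settings the difference stayed between -0.63 and -0.47. Glutamate dehydrogenase gdh1, phosphoenolpyruvate carboxylase pep4, asparagine synthetase asn1 and akh2, an aspartate kinase, lay between -0.12 and 0.09 and none was called. The median of the 10 spots was -0.06. glu1, which matched by symbol, is a beta-glucosidase and was not counted.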

How the data were processed

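Amplified L1 and L2 RNA was compared on 18 two-colour slides of 3 array designs, 54 columns in all. The values as deposited, log ratios between channels, are recorded here as a score because no source states the base. The authors' normalisation: not given in the sources used here. Probes have values in every column of a design or in none (37662 of 49280). L, M and H readings were averaged, slides turned by dye orientation, and a layer and a dye term fitted per probe and design with limma 3.58.1 in R 4.3.3 (lmFit, eBayes, 4 residual degrees of freedom). P-values were two-sided, Benjamini-Hochberg adjusted over all probes of a design, and measure the spread between slides, whose number limits the precision. A further fit used 1 value per gene and L1 extract. The planned test of gln5 against the other genes could not be run, since gln5 has no spots outside slides 7 to 12. Names came from the array annotation matched to RefSeq (Zm-B73-REFERENCE-NAM-5.0); sequences were not used here. Every family spot with values is given, called nitrogen genes are named with the others as ranges, and the 5 genes nearest to gln5 are named. The members and lists were chosen with earlier results of these data known. The fits per design were tested on simulated independent slides, with added changes larger than the mean GLN6 differences. Neither the fit over extracts nor shared L2 extracts were simulated. Figures used Python 3.11.15 and matplotlib 3.10.9.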

Additional observations from a re-analysis of the deposited data

Results flagged for a closer look

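On slides 7 to 12, GLN6 spot 1474 on slide 9 was at 0.39, apart from the other slides, of which the nearest was at -0.38. Over L1 extracts, GLN6 in extract 3 was at 0.14 with all spots, the nearest other extract being at -0.24, and at 0.0574 with the shared clone alone, the nearest being at -0.37. Slide 9 carries extract 3, so these 3 values are not independent. They stood out by the gap between the most extreme value and its neighbour, judged over 15 spots and 2 sets of extracts, and chance gives such a gap in about 1 of 20 groups. Without extract 3, left out for its own value, the GLN6 difference over extracts was -0.37, a description with no test.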

How the results depend on the processing

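The depth of arrays is not a count, and 6 slides per design limit what can pass. Probes called on slides 1 to 6 numbered 409, against 261 with the L reading alone, 258 without the dye term, 78 without slides 1 and 5 and 211 to 417 when each slide was left out in turn. On slides 7 to 12 they numbered 129, against 82 with the L and 76 with the H reading alone and 38 to 65 without single slides, and on slides 13 to 18, 224 against 79 with the L reading and 88 to 231. Genes called over extracts numbered 16 of 216 (7.41%), against 9 of 216 with the L reading, 34 of 382 (8.90%) on slides 1 to 6 and 13 to 18 only, 10 of 21 (47.6%) among the shared clones (chosen after seeing the data) and 10 of 216 to 33 of 382 (8.64%) without single extracts. The 1 family call on slides 1 to 6, GLN6 spot 1594, became 0 with the M or H reading and without the dye term (limma adjusted p = 0.0819). It also became 0 without slides 1 and 5 (limma adjusted p = 0.442) and without any single slide (0 to 0). The call stayed with the L reading, slides centred, robust eBayes and the L2 extract number as a block. The correlation estimated for that block was negative, at -0.207, and the block raised the calls of the design from 409 to 577. The block therefore does not show that the call holds with shared L2 extracts allowed for. The difference of spot 1594 stayed below 0 under all 14 alternatives. GLN6 over extracts stayed below 0 under all 15, and lost its call at -0.18 with the L reading (adjusted p = 0.231), at -0.37 with the H reading (adjusted p = 0.0586) and without extract 1, with -0.37 to -0.27 when single extracts were left out. gln5 spot 87 ranged from 0.74 to 0.91 over 12 alternatives, and spot 11761 moved to 0.50 with the H reading. Fits that leave out slides or extracts hold fewer samples, and the fits over extracts and clones test different numbers of genes; otherwise the cause was not tested.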
